A study of Mus musculus with 6 samples.

Results

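The genes described here encode 7 enzymes of heme synthesis: Alas1, Alad, Uros, Urod, Cpox, Ppox and Fech. They were found by symbol in the deposited count table, where all 7 had a row among 11922 rows. The RNA came from CD8+ T cells isolated from spleens of C57BL6/J mice, activated for 72 h with anti-CD3/anti-CD28 beads and expanded for 4 days, all in IL-2 at 100 units/ml. From the start of the 7-day culture the cells received water (vehicle) or 0.25 mM aminooxyacetic acid (AOA), which inhibits enzymes whose cofactor is the vitamin B6 derivative pyridoxal phosphate (PLP). Cells of the same 3 mice were used for both groups, which gave 3 libraries each, and replicate numbers are mouse numbers. All cells were treated in culture, and messenger RNA was measured rather than enzyme activity or heme.

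Heme, an iron-holding ring, is the prosthetic group of cytochromes, catalase and other hemoproteins. Its synthesis opens in the mitochondrial matrix, where ALAS joins glycine and succinyl-CoA to 5-aminolevulinic acid with PLP as cofactor. The intermediates are built in the cytosol by ALAD, UROS, UROD and others, and CPOX, PPOX and FECH complete the ring and insert iron in the mitochondrion. ALAS is the rate-limiting step outside the erythroid lineage, and ALAS1 is its housekeeping form. ALAS is the step of the pathway that needs PLP, so the comparison places the transcript of a PLP enzyme beside those of the PLP-independent enzymes downstream of it.

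Libraries held between 12881962 and 18934869 counts with vehicle and between 18696114 and 21997078 with AOA, and the summed level of the 7 genes was 178 to 192 CPM, counts scaled to a common library total, with vehicle and 196 to 210 with AOA. These library totals were scaled by the TMM method. A difference is called when the quasi-likelihood test of edgeR gave a Benjamini-Hochberg adjusted p under 0.05 across all genes tested, and all fold changes are AOA relative to vehicle. In bulk RNA, fewer cells of a type and less RNA per cell cannot be told apart.

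The pathway did not move as a block. Alas1 and Cpox rose, Ppox fell, and the other 4 genes were not called. The background was high, since 53% of the 11759 genes tested were called, 26.2% higher and 26.8% lower, so 2 of 7 higher and 1 of 7 lower were near what all genes showed. The AOA and vehicle libraries did not overlap for 4 of the 7 genes, against 62.1% of all genes tested, with AOA above for 3 and below for 1 (31% and 31.1% of all genes). The median log2 fold change was 0.21 over the 7 genes and −0.02 over all genes tested.

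**Figure D1:**
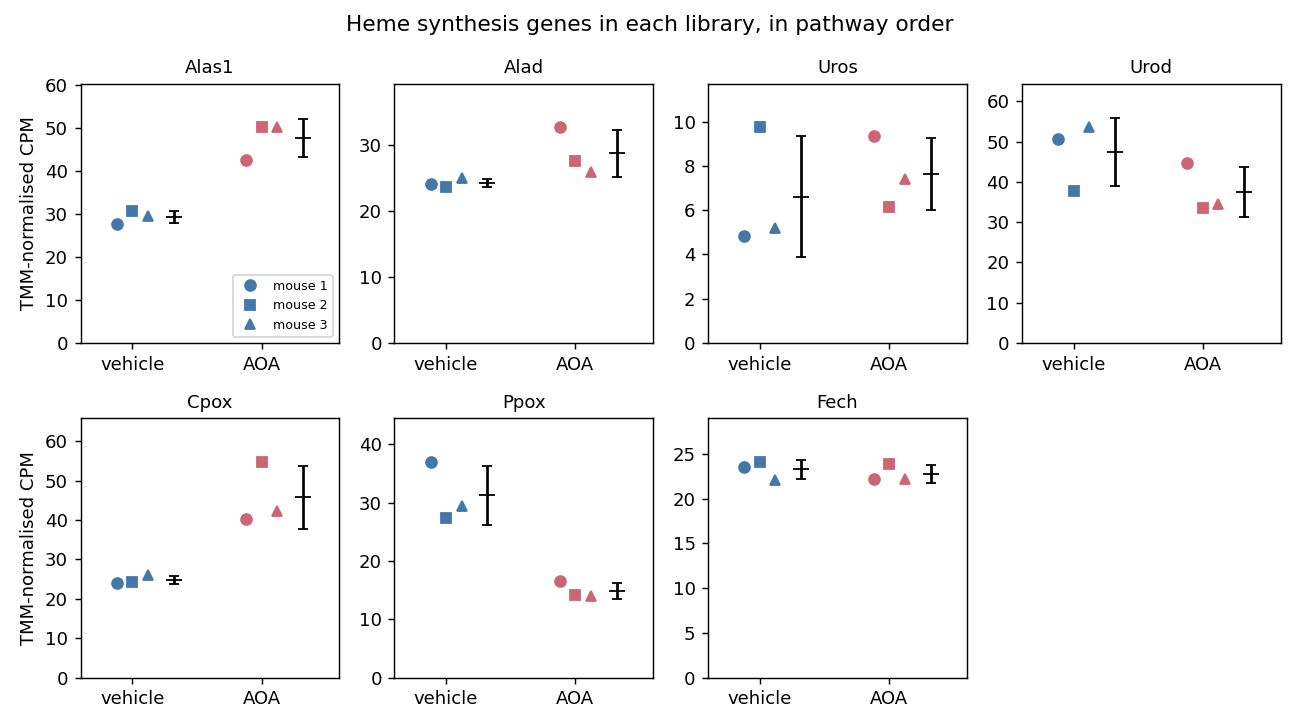
TMM-scaled CPM (vertical axes, each from 0) of the 7 heme synthesis genes in each library, where points are libraries, symbols are mice, blue is vehicle, red is AOA, and bars beside them show the mean ± SD of 3. The groups are apart and AOA is higher for Alas1, Alad and Cpox, apart and lower for Ppox, and overlapping for Uros, Urod and Fech.

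Alas1 (Entrez 11655, chromosome 9, 106233455 to 106248654 on the minus strand of GRCm38) encodes the first enzyme of the pathway. Its levels were 27.7, 30.7 and 29.5 CPM in vehicle replicates 1, 2 and 3 and 42.5, 50.2 and 50.3 CPM in AOA replicates 1, 2 and 3. Every AOA library lay above every vehicle library, and the lowest AOA value exceeded the highest vehicle value. The mean rose from 29.3 ± 1.51 CPM to 47.7 ± 4.46 CPM (SD, n = 3), a 1.63-fold increase (log2 fold change 0.70, SE 0.13, 95% interval 0.40 to 1.00, edgeR adjusted p = 0.00225). Within mice 1, 2 and 3 the log2 differences were 0.62, 0.71 and 0.77. In absolute size the change exceeded that of 58.5% of the genes tested, whose median absolute log2 fold change was 0.56. An antisense gene, 4930500F10Rik, covers 465 of the 6174 exonic bases of Alas1 (7.53%) in GENCODE vM21, and its own level was not analysed here.

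The promoters of 6 of the 7 genes, found in the RefSeq promoter table used here, were searched for short motifs on both strands, in the 250 bases before each RefSeq start site of GRCm38.p6, to show which sequence lies there. The NRF1 half-site was searched as TGCGCA and the E-box, which MYC and USF proteins bind, as CACGTG. The GC box of SP1 was searched as GGGCGG, which can overlap the E2F core searched as GGCGGGA. The CCAAT box of NF-Y was searched by its 5 letters. The NRF1 core was searched as GCATGCG and was added after the Alas1 sequence had been seen. NRF1 is a transcription factor of nuclear genes for mitochondrial proteins, and ALAS1 is among its described targets. The stretch of Alas1 that holds the NRF1 core, on the minus strand (chr9:106247907-106247934), is printed with the core in capitals. It holds GCATGCG on both strands in overlapping matches, 194 and 193 bases before the second RefSeq start, and no other searched motif was in that window. The window of the first start held a GC box 111 bases before it and no other searched motif, the NRF1 core included.

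Alas1 NRF1 core: gcacccaaggCGCATGCGcggcggtcac

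GCATGCG was present in 3.02% of all 32851 promoter windows of this length. A match is a description of letters and not evidence of binding.

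Of the cytosolic steps, Alad, Uros and Urod were not called. Alad (Entrez 17025, chromosome 4, 62509169 to 62519918, minus strand), which joins pairs of 5-aminolevulinic acid into porphobilinogen, had 24.0, 23.6 and 24.9 CPM with vehicle and 32.7, 27.6 and 25.9 CPM with AOA. The groups did not overlap, but AOA replicate 3 lay close to the vehicle libraries and AOA replicate 1 stood highest. The mean log2 fold change was 0.25 (SE 0.15, 95% interval −0.08 to 0.57) and was not called (edgeR adjusted p = 0.180), and without AOA replicate 1 it was 0.15.

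Uros (Entrez 22276, chromosome 7, 133686243 to 133710072, minus strand), which closes the ring, was the least abundant of the 7. Vehicle replicates 1, 2 and 3 had 4.84, 9.76 and 5.21 CPM, and the AOA replicates 9.33, 6.13 and 7.41 CPM. The groups overlapped, with vehicle replicate 2 highest of all 6 libraries. The 61 to 203 counts behind these values leave a counting error that separates vehicle replicate 2 (exact Poisson 95% interval 8.28 to 11.4 CPM) from vehicle replicates 1 (3.70 to 6.22) and 3 (4.22 to 6.36). These intervals cover counting error only. The direction differed among mice, with log2 differences of 0.95, −0.67 and 0.51. The log2 fold change of 0.21 (SE 0.31, 95% interval −0.49 to 0.90) was not called (edgeR adjusted p = 0.599), and without vehicle replicate 2 it was 0.63 and called (edgeR adjusted p = 0.0477).

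Urod (Entrez 22275, chromosome 4, 116989965 to 116994413, minus strand), which removes carboxyl groups from the ring, had 50.7, 37.8 and 53.7 CPM with vehicle and 44.6, 33.6 and 34.4 CPM with AOA. Vehicle replicate 2 lay below AOA replicate 1, so the groups overlapped, while log2 differences in mice 1, 2 and 3 were −0.18, −0.17 and −0.64. The log2 fold change was −0.34 (SE 0.18, 95% interval −0.74 to 0.07) and was not called (edgeR adjusted p = 0.140). It too was called without vehicle replicate 2, at −0.44 (edgeR adjusted p = 0.0373). Over the 7 genes, vehicle replicate 2 and AOA replicate 1 deviated most from their group medians, by a mean absolute log2 of 0.219 and 0.211. The same libraries stood apart over all genes. Chi-square per gene between vehicle replicates was 54.7 and 59.4 in pairs with replicate 2 and 9.93 in the other pair. Between AOA replicates it was 70.1 and 63.5 in pairs with replicate 1 and 10.4 in the other pair. Without vehicle replicate 2, the genes called over the whole table rose from 6233 to 6796.

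The next pair of steps, at the mitochondrial membranes, moved in opposite directions. Cpox (Entrez 12892, chromosome 16, 58670292 to 58717636, plus strand) encodes coproporphyrinogen oxidase. It had 24.0, 24.3 and 25.9 CPM with vehicle and 40.1, 54.8 and 42.2 CPM with AOA. The vehicle values were within a narrow range, and every AOA library was above them, with replicate 2 highest. Cpox rose 1.85-fold, from 24.8 ± 1.05 CPM to 45.7 ± 7.94 CPM (SD, n = 3). The log2 fold change was 0.88 (SE 0.16, 95% interval 0.53 to 1.24, edgeR adjusted p = 0.00146), larger in size than that of 68.1% of the genes tested. Gpr15 shares 204 of the 6661 exonic bases of Cpox (3.06%) on the opposite strand. Gpr15 had 5.71, 9.70 and 13.2 CPM with vehicle and 3.72, 21.0 and 4.39 CPM with AOA, highest in the same AOA library as Cpox. Its log2 fold change of 0.01 had an SE of 0.61 (edgeR adjusted p = 0.992), and its part in the Cpox counts was not tested.

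Ppox (Entrez 19044, chromosome 1, 171275990 to 171281186, minus strand) encodes protoporphyrinogen oxidase, which takes the product of CPOX. Its levels were 37.1, 27.3 and 29.4 CPM with vehicle and 16.5, 14.2 and 14.0 CPM with AOA. All AOA libraries were below all vehicle libraries, and vehicle replicate 1 was the highest. Ppox fell to 0.477 of the vehicle level, from 31.3 ± 5.14 CPM to 14.9 ± 1.41 CPM (SD, n = 3). The log2 fold change was −1.07 (SE 0.17, 95% interval −1.45 to −0.69, edgeR adjusted p = 0.000790), larger in size than that of 75.4% of the genes tested. B4galt3, a galactosyltransferase gene on the opposite strand, shares 791 of the 4515 exonic bases of Ppox (17.5%). The deposited lengths of Ppox (1821), Cpox (3184) and Alas1 (3259) are below their GENCODE totals, so the overlapping share of the counted bases is not known. No source used here gives the strand setting of the counting, so reads of the 2 genes in that overlap cannot be told apart. B4galt3 went from 17.8 ± 0.978 CPM to 13.8 ± 1.03 CPM (SD, n = 3; log2 fold change −0.37, SE 0.16) and was not called (edgeR adjusted p = 0.0714).

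The windows of Cpox (chr16:58669958-58670207, plus strand) and Ppox (chr1:171281187-171281436, minus strand) are shown because these neighbouring steps moved apart. Capitals mark TGCGCA in Cpox, 12 bases before the start, and CCAAT or its reverse complement ATTGG in Ppox, 114, 98, 74 and 45 bases before the start.

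Cpox promoter: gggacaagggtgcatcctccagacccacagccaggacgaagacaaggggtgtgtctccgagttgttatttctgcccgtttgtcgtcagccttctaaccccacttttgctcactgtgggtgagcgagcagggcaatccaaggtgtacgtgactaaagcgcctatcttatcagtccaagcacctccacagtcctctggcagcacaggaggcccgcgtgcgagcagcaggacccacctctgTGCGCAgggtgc

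Ppox promoter: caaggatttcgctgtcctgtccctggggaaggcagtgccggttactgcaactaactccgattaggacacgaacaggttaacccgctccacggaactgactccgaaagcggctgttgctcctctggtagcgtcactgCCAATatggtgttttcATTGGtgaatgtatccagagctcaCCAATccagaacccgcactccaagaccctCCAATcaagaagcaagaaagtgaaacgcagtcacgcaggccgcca

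TGCGCA was in 6.43% of all promoter windows and CCAAT in 33.8%, and 4 or more CCAAT boxes were in 0.840% of them, a cutoff taken from the Ppox count after it had been seen. No other searched motif was in either window, which says only that those letters are not there. The GC content was 58.8% for Cpox and 53.6% for Ppox, against a median of 52.4% over all windows. Among the uncalled genes, the E-box was in both windows of Alad, the first of the windows of Uros and that of Urod, and it was in 6.02% of all windows. Those same windows held GC boxes, which 32.7% of all windows had. CCAAT was also in both windows of Alad and in that of Urod, and the E2F core in the first of Uros. The windows of Alad overlap, so some matches are the same letters. CCAAT 20 bases and GC boxes 56 and 44 bases before the first start are those 174, 210 and 198 bases before the second. The promoter of Fech was not analysed here.

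Fech (Entrez 14151, chromosome 18, 64452914 to 64490251, minus strand) encodes ferrochelatase, which inserts iron into protoporphyrin IX. It had 23.6, 24.2 and 22.1 CPM with vehicle and 22.3, 23.9 and 22.2 CPM with AOA. The 6 libraries lay within the same narrow range and the groups overlapped. The log2 fold change was −0.03 (SE 0.14, edgeR adjusted p = 0.858), and its 95% interval of −0.34 to 0.27 leaves room for a change of either sign of that size. Only 3.07% of the genes tested had a smaller absolute change.

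**Figure D2:**
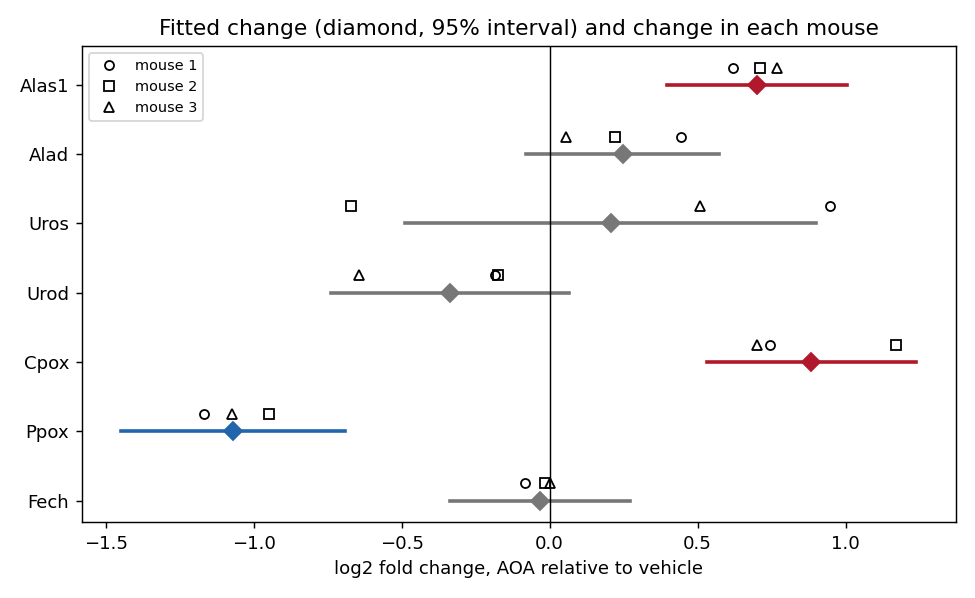
Log2 fold change of AOA relative to vehicle (horizontal axis) for the heme synthesis enzymes in pathway order, where diamonds and lines are edgeR fits with 95% intervals (red called higher, blue called lower, grey not called) and open symbols are the differences in each of 3 mice. The intervals of Alas1 and Cpox lie above 0, that of Ppox lies below 0, and those of Alad, Uros, Urod and Fech span 0.

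Levels between genes can be compared only per gene length, so RPKM, which is CPM per kilobase, was computed from the deposited lengths. These differ from the exonic bases in GENCODE vM21, for Alad 4601 against 1871 and for Fech 2941 against 13838. The order of the genes below thus holds for the deposited lengths only. Urod was highest in all 6 libraries, at 31.8 ± 5.65 RPKM with vehicle and 25.2 ± 4.14 with AOA (SD, n = 3), and Uros was lowest in all 6, at 2.72 ± 1.13 and 3.14 ± 0.664. Ppox stood next to Urod with vehicle (17.2 ± 2.82 RPKM) but ranked 4 or 5 of the 7 with AOA (8.17 ± 0.774). Alas1 went from 8.99 ± 0.462 to 14.6 ± 1.37 RPKM and Cpox from 7.77 ± 0.330 to 14.4 ± 2.49 RPKM. Fech (7.92 ± 0.351 and 7.74 ± 0.328 RPKM) and Alad (5.26 ± 0.141 and 6.24 ± 0.770 RPKM) ranked below Alas1 and above Uros in both groups. Fech and Cpox overlapped with vehicle, as did Alas1 and Cpox, and Ppox and Fech, with AOA.

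**Figure D3:**
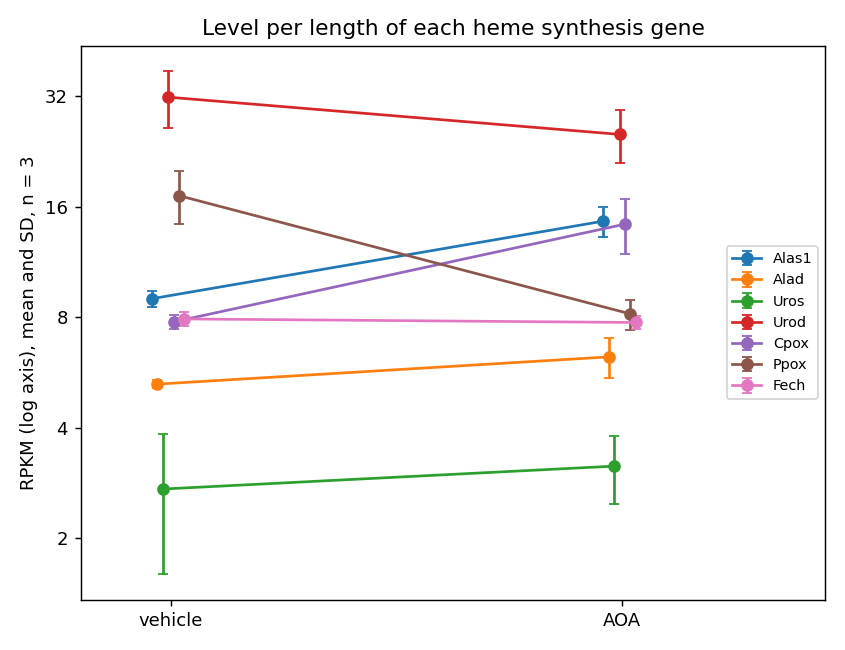
Mean level per gene length in RPKM (logarithmic axis) of the 7 genes with vehicle and AOA, where bars are the SD of 3 libraries and lines join the means of a gene. Urod is highest and Uros lowest in both groups, and the line of Ppox falls from 17.2 to 8.17 RPKM across the rising lines of Alas1 and Cpox.

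Ratios of counts within a library need no scaling between libraries. Over all 21 pairs of the 7 genes, the vehicle and AOA ratios were apart for 14 pairs and overlapped for 7. Pairs that share a gene are not independent, and every pair with Ppox was apart. The share over pairs of all genes was not computed, and of single genes tested 62.1% were apart. With 3 libraries against 3 the 2-sided exact permutation test cannot give less than p = 0.1, which is 0.15 after adjustment over the 21 pairs, so no pair could be called. The Cpox to Ppox ratio had the largest change of the 21, from 0.647, 0.891 and 0.884 with vehicle to 2.43, 3.87 and 3.02 with AOA (log2 change 1.93). Cpox counts were thus below Ppox counts in each vehicle library and above them in each AOA library. The Alas1 to Fech ratio, first step to last, went from 1.18, 1.27 and 1.33 to 1.91, 2.10 and 2.27. The Alas1 to Cpox ratio was 1.16, 1.26 and 1.14 with vehicle and 1.06, 0.916 and 1.19 with AOA, and overlapped. Of the summed counts of the 7 genes, Ppox took 15.4% to 19.3% with vehicle and 6.73% to 7.93% with AOA.

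The genes around the pathway are described by lists whose shares of calls are read against the same background of 26.2% higher and 26.8% lower. Genes that supply the substrates of ALAS had a median log2 fold change of 0.55, and 6 of 8 rose. Shmt2 and Shmt1, the mitochondrial and cytosolic serine hydroxymethyltransferases that make glycine and themselves use PLP, rose by log2 1.49 (edgeR adjusted p = 0.00104) and 2.13 (0.00160). The Shmt1 value was 2.90 without vehicle replicate 2, which at 19.7 CPM was well above the other vehicle libraries. Suclg2, a succinyl-CoA ligase subunit, rose by 0.94 (edgeR adjusted p = 0.00117). Suclg1 (0.25) and Ogdh (0.21), a subunit of the 2-oxoglutarate dehydrogenase that makes succinyl-CoA, were not called. Without AOA replicate 1 Suclg1 was at 0.11, and Ogdh was at 0.39 and called (edgeR adjusted p = 0.0235).

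Alas1 belongs to the α-oxoamine synthases, PLP enzymes that join an amino acid to an acyl-CoA. Gcat, the glycine acetyltransferase of threonine breakdown, was the other called gene of the 4 tested, at 0.59 (edgeR adjusted p = 0.0370), and lost its call without any library but vehicle replicate 2 (0.49 to 0.69, adjusted p 0.0521 to 0.121). The serine palmitoyltransferase genes Sptlc1 (0.23) and Sptlc2 (0.18) were not called. Of 29 PLP-dependent enzymes tested, Alas1 included, 12 rose, 4 fell and 13 were not called, with a median of 0.23. Psat1, which makes phosphoserine, rose by 1.93 (edgeR adjusted p = 0.000383), next to the 2.13 of Shmt1. Gldc had a fitted value of 2.17, but only 3 to 9 counts in the vehicle libraries. It passed the low-count filter only through the AOA libraries, where it is high, although it is among the 12 and in the median. Gldc was not called without AOA replicate 2 (1.61, edgeR adjusted p = 0.0528). Pygl, liver glycogen phosphorylase, fell most (−2.43, edgeR adjusted p = 0.00325), from 70.1, 13.8 and 71.2 CPM with vehicle to 9.61, 9.83 and 9.28 CPM with AOA. Vehicle replicate 2 lay close to the AOA libraries, and the value without it was −2.85. Next came Kyat1 (−1.27, adjusted p = 0.00181) and Mocos (−1.20, adjusted p = 0.000721). The rise of Alas1 lay between those of Odc1 (0.73) and Srr (0.60).

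Carriers of porphyrins, heme and mitochondrial iron moved in both directions. Of 12 tested, 5 rose, 4 fell and 3 were not called, with a median of 0.40, and 2 fell without vehicle replicate 1 or without vehicle replicate 3. Abcb6, an ABC transporter described as carrying porphyrins, rose from 5.08, 7.80 and 4.23 CPM to 17.8, 20.6 and 18.6 CPM (log2 fold change 1.73, SE 0.24, edgeR adjusted p = 0.000418), with the groups far apart. Tmem14c, needed for porphyrin import into the mitochondrion, rose by 0.83 (edgeR adjusted p = 0.00274) and Flvcr1, described as a heme exporter, by 0.79 (0.00137). Pgrmc1 (0.73) and Pgrmc2 (0.70), whose proteins bind heme, were also called higher.

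Both mitoferrins, the carriers that bring iron into mitochondria, fell. Slc25a37 (mitoferrin 1) went from 139, 93.7 and 93.6 CPM to 51.1, 42.3 and 38.7 CPM, with no overlap (log2 fold change −1.30, SE 0.19, edgeR adjusted p = 0.000530). Slc25a28 (mitoferrin 2) had 39.9, 22.1 and 39.7 CPM with vehicle and 19.4, 19.1 and 19.3 CPM with AOA (−0.81, SE 0.22, edgeR adjusted p = 0.0125). Vehicle replicate 2 lay near the AOA libraries, and the call was lost without vehicle replicate 1 (−0.66, adjusted p = 0.0551) or 3 (−0.65, adjusted p = 0.0526). Slc48a1, which moves heme out of lysosomes, fell by 0.70 (edgeR adjusted p = 0.000987), and Abcb10 by 0.45 (0.0420). The Abcb10 call was lost with the mouse as a block (adjusted p = 0.0562), with no low-count filter (0.0530) and without vehicle replicate 1 (0.144) or 3 (0.163) or AOA replicate 1 (0.0949) or 3 (0.159). Slc25a38, the glycine carrier that feeds ALAS, was at 0.03 and was not called.

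**Figure D4:**
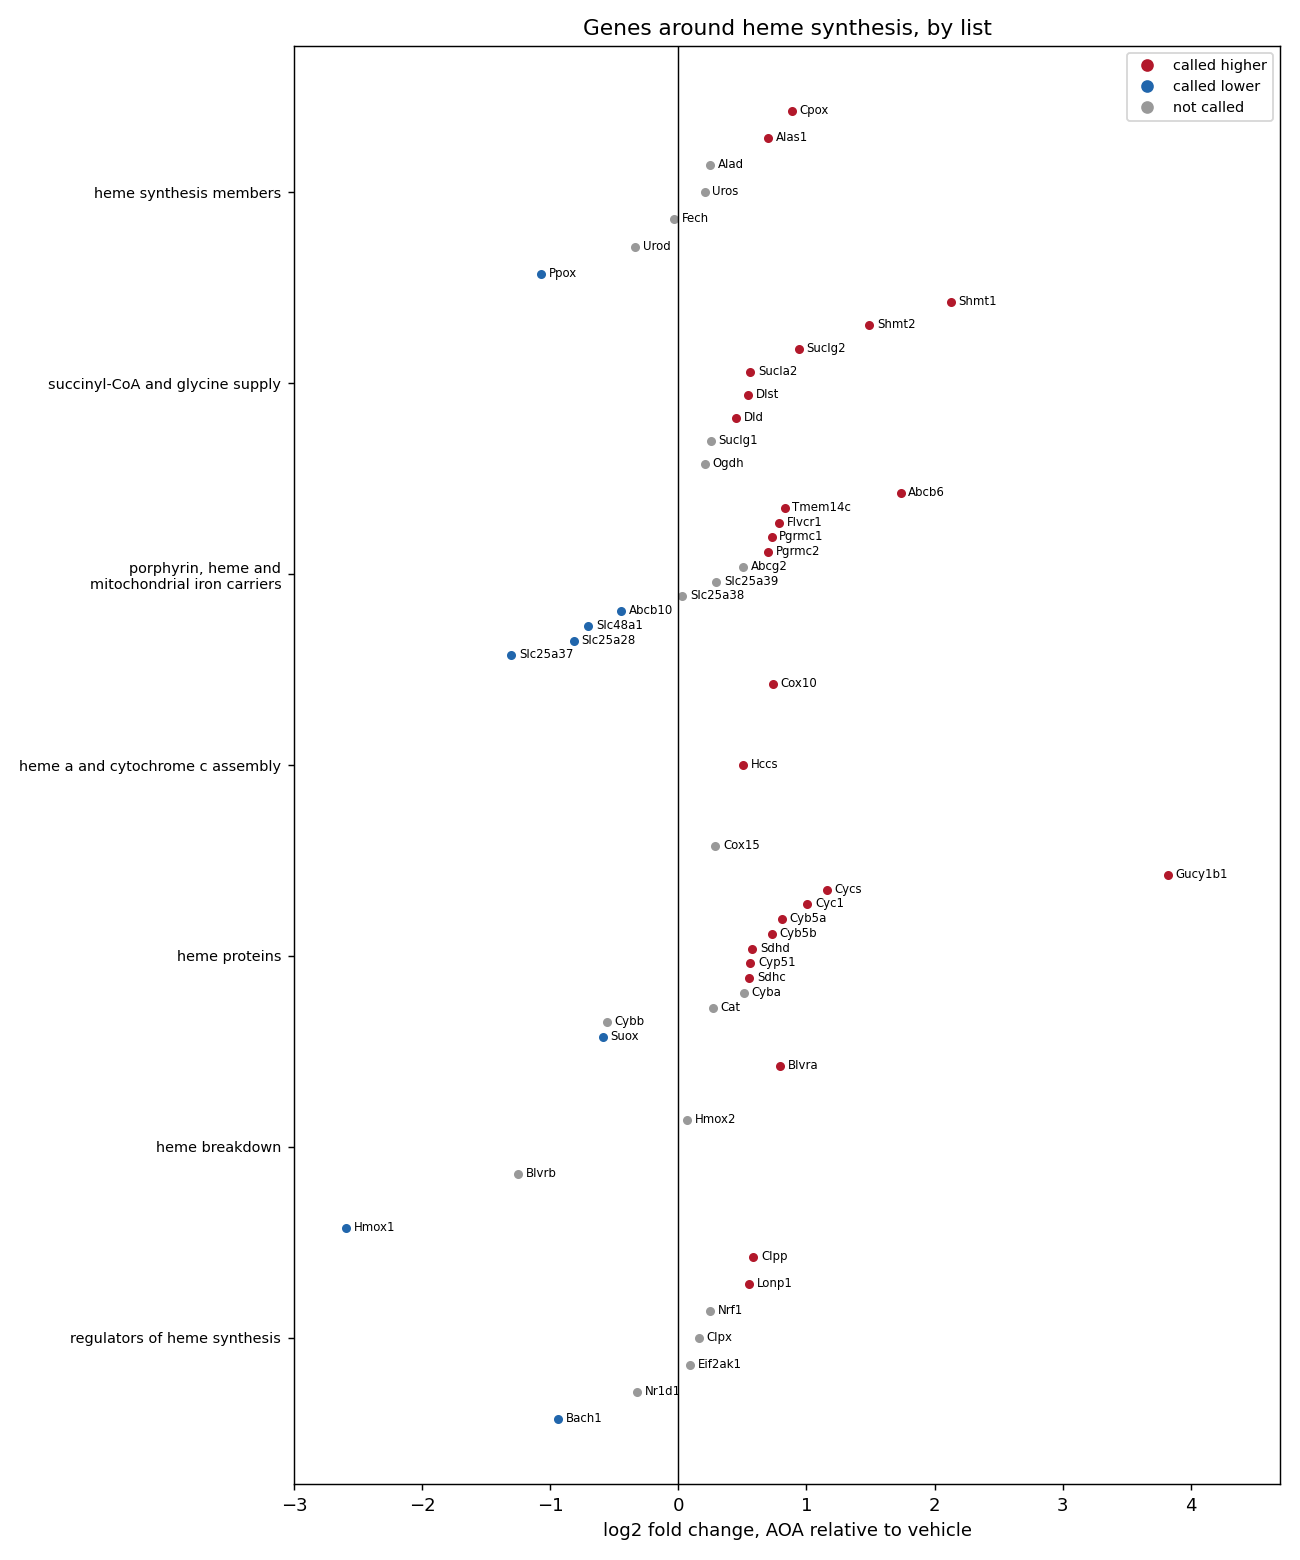
Log2 fold change of AOA relative to vehicle (horizontal axis) for each tested gene of the heme lists, grouped by list and coloured by its edgeR call. Abcb6 stands to the right of its list, as does Gucy1b1, which has few vehicle counts, and Hmox1, Slc25a37 and Ppox to the left of theirs.

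Most tested genes in the lists of heme a and cytochrome c assembly and of hemoproteins were called higher. Cox10, which makes heme o on the way to the heme a of cytochrome c oxidase, rose by 0.74 (edgeR adjusted p = 0.00357), and Hccs, which attaches heme to cytochrome c, by 0.50 (0.0210). The Hccs call was lost without vehicle replicate 1 (0.43, adjusted p = 0.0749), vehicle replicate 3 (0.50, 0.0651) or AOA replicate 2 (0.50, 0.0566), and Cox15, the next step to heme a, was not called (0.29, edgeR adjusted p = 0.143) except without vehicle replicate 2 (0.47, 0.0165). Of 12 hemoproteins tested, 8 rose, 1 fell and 3 were not called, with a median of 0.57. The mitochondrial cytochromes Cycs (1.16, edgeR adjusted p = 0.000918) and Cyc1 (1.01, 0.000476) were among the risers. Gucy1b1, the heme-binding subunit of soluble guanylate cyclase, had 1, 7 and 4 counts with vehicle and 80, 84 and 58 with AOA. It passed the low-count filter only through the AOA libraries, where it is high, so it is given by its counts, although it is among the 8. Suox, sulfite oxidase, fell by 0.59 (edgeR adjusted p = 0.0112).

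Of the 4 heme breakdown genes, Hmox1, the inducible heme oxygenase, fell. It had 8.10, 13.6 and 6.79 CPM with vehicle and 1.29, 2.33 and 1.11 CPM with AOA. The groups were far apart, with vehicle replicate 2 highest. The fold was 0.166 (log2 fold change −2.59, SE 0.38, 95% interval −3.44 to −1.74, edgeR adjusted p = 0.000536). Hmox2, the constitutive form, was at 102 ± 5.30 CPM and 107 ± 10.6 CPM (SD, n = 3; 0.07, edgeR adjusted p = 0.678). Of the biliverdin reductases, Blvra rose by 0.80 (edgeR adjusted p = 0.0125). Blvrb, which had 21.1, 5.39 and 21.3 CPM with vehicle and 9.98, 4.65 and 5.40 CPM with AOA, was not called (−1.25, edgeR adjusted p = 0.0543). Its adjusted p was 0.0103 with the mouse as a block (−1.12), 0.00126 without vehicle replicate 2 (−1.63), 0.0128 by DESeq2 (−1.24) and 0.0488 with total counts only (−1.22).

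Among 7 regulators of heme synthesis tested, Bach1, a heme-binding repressor of Hmox1, fell. It had 66.7, 55.5 and 70.5 CPM with vehicle and 31.4, 35.8 and 33.6 CPM with AOA, so the groups were apart (log2 fold change −0.94, SE 0.14, edgeR adjusted p = 0.000625). Transcripts of the mitochondrial proteases Clpp (0.58, edgeR adjusted p = 0.0152) and Lonp1 (0.55, 0.0447), which degrade ALAS1 protein, rose. The Clpp call was lost without vehicle replicate 3 (0.57, adjusted p = 0.0526), and that of Lonp1 without vehicle replicate 1 or 3 or AOA replicate 2 or 3 (0.44 to 0.52, adjusted p 0.108 to 0.137), with total counts only (0.56, 0.0554) and with the filter at 10 CPM in 3 libraries (0.51, 0.0613). Clpx (0.16), the unfoldase partner of CLPP, Nrf1 (0.25), Eif2ak1 (0.09), the heme-regulated eIF2α kinase, and Nr1d1 (−0.32), a heme-binding nuclear receptor, were not called.

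The genes most like Alas1 by Pearson correlation of log2 CPM over the 6 libraries were Mthfd1l (r = 0.999), Nup160 (0.998) and E130317F20Rik (0.998). With 2 groups of 3 libraries such values largely restate the difference between the groups, and 911 genes had an r of at least 0.95.

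Markers of other cells were checked because their RNA would add to these levels. The CD8 T cell markers Cd3e, Cd3g, Cd8a and Cd8b1 summed to 2348 to 3075 CPM with vehicle and 3549 to 4147 with AOA, with Cd8a (1.03) and Cd8b1 (0.64) called higher. The Cd8b1 call was lost without AOA replicate 3 (0.57, edgeR adjusted p = 0.0634), and Cd3e (−0.27) and Cd3g (−0.31) were not called, with AOA below vehicle in all libraries for Cd3g. Of 11 erythroid markers 1 had a row, Hemgn, at 11.0 to 16.0 CPM with vehicle and 44.2 to 70.7 with AOA, and the hemoglobin and Klf1 transcripts were not analysed here. The 3 B cell markers summed to 11.8 to 15.1 CPM with vehicle and 21.6 to 30.2 with AOA. Most of this was Cd79b, the called gene of the 3, at 10.6 to 13.0 CPM with vehicle and 19.6 to 28.2 with AOA. Cd79a and Ms4a1 stayed between 0.476 and 2.28 CPM. Of 5 myeloid markers 3 had a row, and their sum was 40.8 to 54.2 CPM with vehicle and 0.873 to 3.33 with AOA. Itgam, also carried by activated T cells, took 40.5 to 52.9 CPM of that sum with vehicle and 0.598 to 2.11 with AOA. Lyz2 and Cd14 stayed at or below 1.16 CPM, with Lyz2 at 0 in vehicle replicates 1 and 3 and Cd14 at 0 in AOA replicates 1 and 3. The part of these markers in the differences above was not tested.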

How the data were processed

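Per the labels and the methods of the study, the authors made stranded libraries of messenger RNA, aligned paired-end reads with STAR and deposited, for each gene, the raw counts of reads with a unique alignment, with a gene length in bases. The submitters' processing notes also list mm10, featureCounts, bcl2fastq and DESeq2. The annotation, strand setting and row filter were not given in the sources used here. Reads that a filter or counting rule dropped cannot be recovered.

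Genes and their positions were matched by symbol, and promoters by Entrez number. Groups were compared in R 4.3.3 with edgeR 4.0.16 (filterByExpr with a minimum count of 10, TMM, robust quasi-likelihood test, Benjamini-Hochberg adjustment, threshold 0.05), without a mouse term. The row with no symbol, 1 in all, was kept under its Entrez number. CPM used TMM library sizes, with a prior count of 2 on the log2 scale, and RPKM used the deposited lengths. Alternatives were limma 3.58.1 with voom, DESeq2 1.42.0 and its size factors alone, total counts, no filter, 10 CPM in 3 libraries, the mouse as a block, each library left out, and a log2 fold change of at least 1. The steps were tested on simulated data.

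Libraries are paired, since the labels name a mouse donor that is shared between groups. Deviations from the group means correlated within mice 1, 2 and 3 at r of 0.0868, 0.189 and 0.194 across genes, which are not independent replicates.

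All 7 genes are named. From each list, called genes with the largest changes are named, up to 3 per direction, and further ones by their role, after their values were seen. Lists of 4 genes or fewer are given in full. Members and lists were chosen with earlier results of these data known. Results of some list genes are not reported here. Positions are from GENCODE vM21 (GRCm38) and promoter sequences from RefSeq (GRCm38.p6).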

Additional observations from a re-analysis of the deposited data

How the results depend on the processing

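Alas1, Cpox and Ppox kept their direction and call in all 13 alternatives, at log2 fold changes of 0.67 to 0.78, 0.74 to 0.97 and −1.15 to −0.91. A minimum absolute log2 fold change of 1 left 3081 called genes, 1418 higher and 1663 lower, and of the 7 genes 0 higher and only Ppox lower. Leaving out each library in turn gave 0.15 to 0.32 for Alad, 0.037 to 0.63 for Uros, −0.48 to −0.21 for Urod and −0.062 to 0.031 for Fech. The sign of Fech turned without vehicle replicate 2 (0.031, edgeR adjusted p = 0.865). Across these fits, 2 to 3 of the 7 genes were called higher and 1 to 2 lower. The 3 higher and 2 lower came without vehicle replicate 2, where 3499 of all genes were called higher and 3297 lower. Filtering at 10 CPM in 3 libraries left no value for Uros.

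When mouse entered as a replicate block, 6292 genes passed, and among the 7 genes no call changed: Alas1 was at 0.70 (edgeR adjusted p = 0.00261), Cpox at 0.87 (0.00115) and Ppox at −1.06 (0.000342). Of the list genes named above, the block ended the call of Abcb10 (−0.45, adjusted p = 0.0562) and added Blvrb. Of 224 counts of called list genes recomputed under alternatives, 32 moved by over 1.5 times, 15 of them with a library left out and 11 at the stricter fold. Another scaling shifted the log2 fold changes of single genes by a median of at most 0.0138. Uros rested on 61 to 203 counts per library.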
